A study of Mus musculus with 9 samples.

Results

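The S100 genes encode small calcium-binding proteins. The 8 genes described here were taken by name from the deposited expression table: S100a8 and S100a9, whose products pair as calprotectin, and S100a1, S100a4, S100a6, S100a10, S100a11 and S100a13. They are 8 of 26770 gene rows, and all 8 passed the filter on low counts that left 15447 genes for testing. RNA was sequenced from spleen-derived monocytes of wild-type (WT) mice in 9 libraries, 3 per group. Untreated cells received the solvent DMSO at a dilution of 1 in 1000, 1001 or 1002 by the sample labels. LPS cells received lipopolysaccharide, a bacterial outer membrane component that Toll-like receptor 4 detects, at 40 ng/ml for 5 hours. LPS with octanal cells were primed with low-dose LPS and then received the aldehyde octanal, a ligand of the olfactory receptor Olfr2, at 20 µM for 18, 19 or 20 hours by the sample labels, where the series' design text gives 18 hours for all. The study asks about Olfr2 in monocytes in the setting of heart injury by ischemia and reperfusion. The labels do not give equal times in culture or equal solvent for the groups, so treatment, time and solvent cannot be told apart. They name no separate animals or cultures either, so a p-value here measures the spread between these samples, which may be technical.

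S100 proteins carry EF-hand calcium-binding loops and work mostly as dimers that dock onto target proteins when calcium rises. Calprotectin is a major cytosolic protein of neutrophils and is also made by blood monocytes, and it is usually lost as monocytes become macrophages. Released calprotectin binds zinc and manganese, which starves microbes, and acts as an alarm signal through Toll-like receptor 4 and the receptor RAGE. The other members act mainly inside the cell, on annexins, myosin and secretory partners.

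All 8 genes lie on chromosome 3 of the GRCm38 build and are protein-coding. From S100a1 to S100a9 the cluster spans 185 kb, and S100a11 and S100a10 follow 2825 kb further on. S100a8 (ENSMUSG00000056054) lies at chr3:90668978-90670035 on the plus strand. S100a9 (ENSMUSG00000056071) lies at chr3:90692632-90695721 on the minus strand, with 22596 bases between the 2 genes. S100a6 (ENSMUSG00000001025) lies at chr3:90612882-90624181 and S100a4 (ENSMUSG00000001020) at chr3:90603771-90606045, both on the plus strand. S100a1 (ENSMUSG00000044080, chr3:90511034-90514392, minus strand) and S100a13 (ENSMUSG00000042312, chr3:90514435-90524581, plus strand) stand head to head with 42 bases between them. S100a11 (ENSMUSG00000027907) lies at chr3:93520488-93526287 and S100a10 (ENSMUSG00000041959) at chr3:93555080-93564643, both on the plus strand. S100a4 overlaps the gene model Gm42674, which had 0 counts in every library.

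Promoter windows from 250 bases before to 50 after the RefSeq gene start (build GRCm38.p6) were found for 7 of the 8 genes, all but S100a10. That start can differ from the gene positions above, as it does for S100a8. The windows of the calprotectin pair are shown with those of S100a6, whose values followed the pair most closely among the other members, and of S100a4, whose octanal values overlapped its LPS values. Capitals mark the letters TATAAA on the gene's own strand.
S100a8, chr3:90668821-90669120, plus strand: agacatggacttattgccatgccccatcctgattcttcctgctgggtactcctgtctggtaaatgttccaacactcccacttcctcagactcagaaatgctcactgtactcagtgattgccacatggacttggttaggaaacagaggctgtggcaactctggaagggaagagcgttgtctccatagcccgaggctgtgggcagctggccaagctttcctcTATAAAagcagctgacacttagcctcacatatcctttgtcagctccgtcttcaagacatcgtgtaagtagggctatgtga
S100a9, chr3:90695672-90695971, minus strand: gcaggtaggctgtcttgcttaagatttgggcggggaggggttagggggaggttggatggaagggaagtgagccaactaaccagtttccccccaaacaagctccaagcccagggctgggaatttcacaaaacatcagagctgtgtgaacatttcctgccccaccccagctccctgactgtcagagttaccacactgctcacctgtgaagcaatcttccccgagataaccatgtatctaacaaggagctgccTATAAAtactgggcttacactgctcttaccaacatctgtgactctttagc
S100a6, chr3:90612644-90612943, plus strand: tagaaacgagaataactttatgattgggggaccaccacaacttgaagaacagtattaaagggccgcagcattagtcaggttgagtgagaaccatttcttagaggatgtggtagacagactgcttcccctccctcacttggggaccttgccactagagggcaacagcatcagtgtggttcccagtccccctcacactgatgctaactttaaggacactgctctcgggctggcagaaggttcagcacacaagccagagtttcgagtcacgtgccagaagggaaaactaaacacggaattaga
S100a4, chr3:90603520-90603819, plus strand: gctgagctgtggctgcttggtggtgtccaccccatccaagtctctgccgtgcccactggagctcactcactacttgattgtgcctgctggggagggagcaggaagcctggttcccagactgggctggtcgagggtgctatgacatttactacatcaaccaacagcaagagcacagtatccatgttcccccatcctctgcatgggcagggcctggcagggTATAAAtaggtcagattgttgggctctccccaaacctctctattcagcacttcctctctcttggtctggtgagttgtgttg
TATAAA stands at bases 221 to 226 of the S100a8 window, 251 to 256 of the S100a9 window and 220 to 225 of the S100a4 window, counted from 1 at the 5′ end. The S100a9 match thus begins at the RefSeq gene start, while those of S100a8 and S100a4 lie before it. It is absent from the S100a6, S100a1, S100a11 and S100a13 windows, and 8.32% of all 32851 promoter windows hold it on the gene's strand. Both strands were also searched for GAGGAA (PU.1), TTGCNNAA (C/EBP) and TGANTCA (AP-1). GAGGAA, found on either strand in 28.3% of all windows, matched in S100a8, with 2 matches, and in S100a4 and S100a11. The first of the 2 S100a8 matches is at bases 81 to 86, and the second, at bases 215 to 220, ends directly before its TATAAA. TTGCNNAA, found in 10.8% of windows, matched among the members only in S100a9, as TTGCTTAA at bases 15 to 22. TGANTCA, found in 7.81% of windows, matched among them only in S100a11, with 2 matches. These matches describe letters and show no binding.

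Total counts were 29594291 to 38388421 per library. The cells carried markers of several leukocytes. Among classical monocyte markers, Csf1r stood at 402 ± 222, 231 ± 46.2 and 379 ± 59.8 CPM (counts scaled by the TMM-adjusted library total to a common depth, mean ± SD, n = 3) in the untreated, LPS and octanal groups. Ly6c2 was spread from 2.82 to 249 CPM in untreated libraries and was at most 7.90 CPM in LPS and 1.01 CPM in LPS with octanal libraries. Summed over 15 neutrophil markers the level was 6449 to 13695 CPM in untreated, 745 to 924 in LPS and 2066 to 5262 in LPS with octanal libraries, and no marker was at 0 in all libraries of a group. Summed T cell markers took 96.7 to 481, 870 to 1040 and 515 to 751 CPM. Summed classical monocyte markers took 6254 to 14422, 2973 to 4146 and 5702 to 8427 CPM. Lyz2 had the largest mean within that monocyte sum in each group, at 6609, 1433 and 3395 CPM. Of the 10 monocyte markers, edgeR found 4 lower and 1 higher with octanal than untreated at an adjusted p under 0.05, with a median log2 fold change of -1.13. Of all genes, 6.03% were lower and 2.63% higher there. Mitochondrial transcripts took 2.197 to 3.99%, 4.12 to 7.66% and 2.31 to 3.10% of the counts in these groups. In such bulk samples fewer cells of a type and less RNA per cell cannot be told apart.

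Between genes, levels were compared per length, as the deposited FPKM (fragments scaled by gene length and library depth). The calprotectin pair stood above all other members in every library. In untreated libraries S100a9 averaged 13565 ± 4064 FPKM and S100a8 7725 ± 1913, and their ranges overlapped. S100a11 followed at 728 ± 109, then S100a6 at 308 ± 83.4, S100a4 at 173 ± 35.6 and S100a10 at 117 ± 26.8, of which S100a6 and S100a4 overlapped. S100a1 at 24.4 ± 12.7 and S100a13 at 21.7 ± 4.19 were lowest and overlapped. In LPS libraries the order was different. S100a8 (1498 ± 182 FPKM) then stood above S100a9 (1110 ± 176) without overlap, and S100a10 (170 ± 18.8) came next and overlapped S100a11 (163 ± 51.7). S100a6, above S100a4 in the mean of untreated libraries, was below it at 34.4 ± 13.95 FPKM against 63.6 ± 12.5, with overlap. With octanal S100a9 (6078 ± 2686 FPKM) and S100a8 (5213 ± 1353) overlapped again, and so did S100a11 (284 ± 124), S100a6 (117 ± 29.8), S100a10 (96.8 ± 25.5) and S100a4 (80.3 ± 27.6), each with the next.

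**Figure D1:**
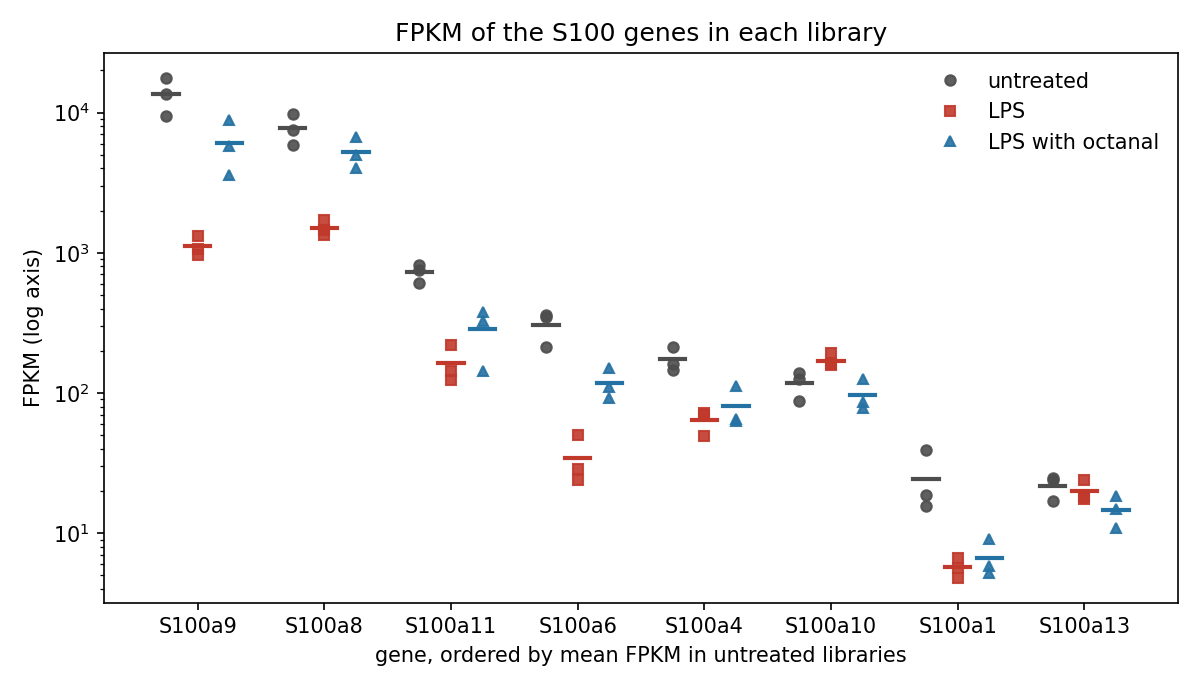
FPKM (log axis) of the 8 S100 genes in each library, with genes ordered by their mean in untreated libraries, a symbol per library and a bar at the mean of each group of 3. S100a9 and S100a8 lie above the other members in all 9 libraries, and S100a10 is the only member whose LPS libraries all lie above its untreated ones.

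LPS against untreated asks how the cells respond to a low dose of LPS. In this comparison 6 of 8 members fell and none rose: S100a9 13.3-fold, S100a6 9.64-fold, S100a8 5.59-fold, S100a11 4.83-fold, S100a1 4.57-fold and S100a4 2.93-fold. S100a10, the partner of annexin A2, and S100a13, an export cofactor of fibroblast growth factor 1 and interleukin 1 alpha, were not called. A gene was called at a Benjamini-Hochberg adjusted p under 0.05 in edgeR's quasi-likelihood test of all 9 libraries, and 32.8% of the 15447 genes were called, 15.2% as higher and 17.6% as lower. At an unadjusted p under 0.05, where 45.1% of all genes stood, there were 6 members lower and 1, S100a10, higher. The median log2 fold change was -2.23 over the 8 members and 0.01 over all genes tested.

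S100a8 had 4049, 2989 and 5428 CPM in untreated replicates 1, 2 and 3 and 660.2, 856 and 715 CPM in the LPS replicates. Every LPS library lay below every untreated one, as in 24.8% of all genes (log2 fold change -2.48, SE 0.291, adjusted p = 0.0010). S100a9 had 7637, 5098 and 10414 CPM in untreated and 547, 694 and 504 CPM in LPS libraries, again without overlap (log2 fold change -3.73, SE 0.418, adjusted p = 9.6e-04). In both genes untreated replicate 2 was the lowest untreated library and LPS replicate 2 the highest LPS library. Together the pair took 0.835 to 1.46% of all counts in untreated and 0.128 to 0.159% in LPS libraries.

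The groups also stood apart in the balance within the pair. There were 1.89, 1.71 and 1.92 S100a9 counts per S100a8 count in the untreated libraries and 0.828, 0.811 and 0.705 in the LPS libraries. With octanal the ratio was 1.22, 0.942 and 1.41. No group overlapped another in this ratio, and the octanal libraries lay between the others.

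S100a6, which binds calcyclin-binding protein and annexin A11, had 289.9, 161 and 294 CPM in untreated and 21.4, 38.1 and 17.9 CPM in LPS libraries (log2 fold change -3.27, SE 0.363, adjusted p = 9.5e-04). Its groups did not overlap, and its fold lay between those of S100a8 and S100a9. S100a11, a partner of annexin A1, had 423, 325 and 484 CPM in untreated and 73.7, 117 and 64.3 CPM in LPS libraries (log2 fold change -2.27, SE 0.367, adjusted p = 0.0033). S100a4, which binds non-muscle myosin, had 117, 83.0 and 83.3 CPM in untreated and 34.7, 37.0 and 24.9 CPM in LPS libraries (log2 fold change -1.55, SE 0.249, adjusted p = 0.0032). Neither gene's groups overlapped. S100a1, best known from muscle, had 28.7, 13.2 and 12.0 CPM in untreated and 4.50, 3.41 and 3.87 CPM in LPS libraries (log2 fold change -2.19, SE 0.366, adjusted p = 0.0038). Here untreated replicate 1 stood far above the other untreated libraries, and without it the log2 fold change was -1.71 (adjusted p = 0.0044).

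S100a13, the head-to-head neighbour of S100a1, had 19.3, 17.7 and 13.9 CPM in untreated and 17.3, 13.3 and 12.7 CPM in LPS libraries. Its groups overlapped, with a log2 fold change of -0.23 (95% interval -0.73 to 0.26, adjusted p = 0.44). Per S100a13 CPM there were 0.742 to 1.49 S100a1 CPM in untreated and 0.256 to 0.304 in LPS libraries. S100a10 had 94.5, 99.1 and 68.6 CPM in untreated and 132, 112 and 111 CPM in LPS libraries. All 3 LPS libraries lay above the untreated ones, as in 26.7% of all genes, but the change was not called (log2 fold change 0.44, 95% interval 0.01 to 0.86, adjusted p = 0.10).

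Set against each other, the pair had a mean log2 fold change of -3.11, and the other 6 members had a median of -1.87 with a range from -3.27 (S100a6) to 0.44 (S100a10). The difference was -1.23, and S100a6 lay inside the range of the pair. The 6 calls held without each single library in turn. Of the 15 neutrophil markers 13 fell in the same comparison, with a median log2 fold change of -4.73. So did 7 of 10 classical monocyte and 7 of 10 macrophage markers, beside 17.6% of all genes tested. All 8 T cell markers rose, beside 15.2% of all genes. The part of these cells in the S100 result was not tested. Per CPM of summed neutrophil markers there were 0.853 to 1.25 CPM of calprotectin in untreated, 1.36 to 1.68 in LPS and 1.66 to 1.99 in LPS with octanal libraries. The make-up of that sum differed between the groups, so the ratio does not give calprotectin per neutrophil. In untreated, LPS and octanal libraries Ngp averaged 3887, 40.2 and 589.6 CPM, Lcn2 1228, 393 and 1521 CPM, and Ly6g 35.2, 20.3 and 52.2 CPM.

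**Figure D2:**
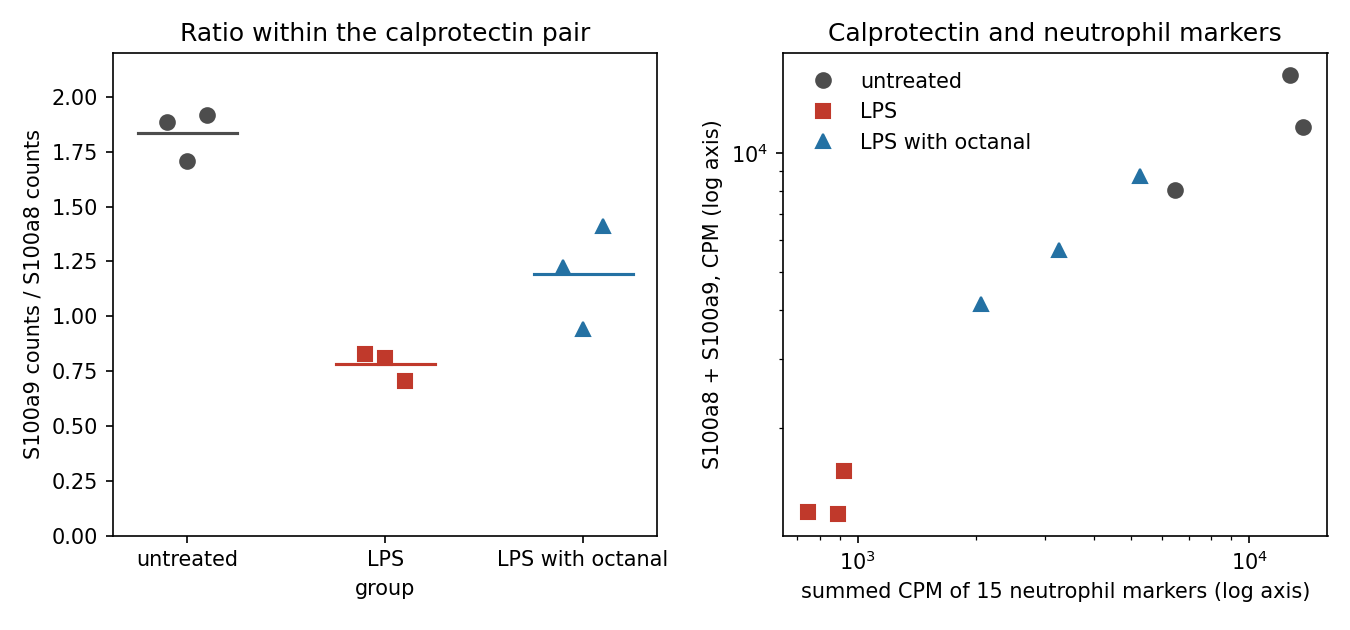
Left, S100a9 counts per S100a8 count in each library, with a bar at the group mean, where untreated libraries lie between 1.71 and 1.92, LPS between 0.705 and 0.828 and LPS with octanal between 0.942 and 1.41. Right, summed CPM of S100a8 and S100a9 against summed CPM of 15 neutrophil markers (both log axes), where the LPS libraries are lowest on both axes and the octanal libraries lie between them and untreated replicates 1 and 3.

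The comparison of LPS with octanal against LPS alone addresses what octanal adds to priming. S100a9 was 5.87-fold, S100a8 3.72-fold and S100a6 3.63-fold higher with octanal, each with all 3 octanal libraries above all 3 LPS libraries, as in 18.3% of all genes. S100a10 was 1.65-fold lower with octanal without overlap, as in 19.9% of all genes. None of these changes was called: edgeR called 0% of the 15447 genes in this comparison, and its lowest adjusted p was 0.051. At an unadjusted p under 0.05 there were 4 members higher and 1 lower, where 13.6% of all genes were higher and 8.69% lower. The median log2 fold change was 0.66 over the 8 members and -0.05 over all genes tested.

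S100a8 had 2556, 2122 and 3628 CPM in the octanal replicates, against 660.2 to 856 CPM in LPS libraries (log2 fold change 1.90, SE 0.285, adjusted p = 0.051). S100a9 had 3126, 1999 and 5117 CPM, against 504 to 694 CPM (log2 fold change 2.55, SE 0.397, adjusted p = 0.051). In both genes octanal replicate 3 was highest and replicate 2 lowest, and so was the sum of the 15 neutrophil markers, at 5262 CPM in replicate 3, 3273 in replicate 1 and 2066 in replicate 2. Of those markers 14 of 15 were higher with octanal, 0 were called by edgeR, 9 were higher at an unadjusted p under 0.05 (13.6% of all genes) and 9 were called higher by DESeq2 (11.2%), with a median log2 fold change of 1.61. Their part in the S100 values was not tested. The defining neutrophil gene Ly6g stood at 35.2 ± 25.4, 20.3 ± 8.84 and 52.2 ± 16.5 CPM in untreated, LPS and octanal libraries, and its untreated range overlapped those of both other groups. Of the neutrophil markers with the highest levels, the granule genes Ngp and Ltf stood at 3887 ± 1541 and 1798 ± 851 CPM in untreated, 40.2 ± 7.62 and 11.3 ± 0.849 in LPS and 589.6 ± 453 and 120.5 ± 121 in octanal libraries. Lcn2, an iron-binding granule gene, stood at 1228 ± 481, 393 ± 12.8 and 1521 ± 364 CPM.

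S100a6 had 85.0, 73.2 and 123 CPM in the octanal libraries, against 17.9 to 38.1 CPM with LPS alone (log2 fold change 1.86, SE 0.344, adjusted p = 0.057). S100a11 had 206, 80.6 and 187 CPM, and its replicate 2 fell within the LPS range (log2 fold change 0.89, 95% interval 0.09 to 1.69, adjusted p = 0.19). S100a4 had 58.9, 35.4 and 35.3 CPM and overlapped the LPS libraries (log2 fold change 0.42, 95% interval -0.13 to 0.98, adjusted p = 0.33). S100a1 had 6.50, 4.24 and 3.92 CPM and overlapped as well (log2 fold change 0.31, 95% interval -0.49 to 1.12, adjusted p = 0.62). Replicate 1 was thus the highest octanal library for S100a1, S100a4 and S100a11, but not for the pair or S100a6. S100a13 had 14.01, 8.54 and 11.8 CPM (log2 fold change -0.34, 95% interval -0.83 to 0.16, adjusted p = 0.39). S100a10 had 91.2, 64.1 and 60.3 CPM, all below the LPS libraries (log2 fold change -0.72, SE 0.189, adjusted p = 0.086).

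The pair's mean log2 fold change of 2.23 compared with a median of 0.37 for the other members, whose range ran from -0.72 (S100a10) to 1.86 (S100a6), a difference of 1.86. Whether members were called rested on the test. DESeq2 called S100a8, S100a9 and S100a6 as higher and S100a10 as lower, with 11.2% of the genes it tested called higher and 3.26% lower. The same 4 members were called by edgeR in a fit without the untreated libraries (9.27% of genes called, 6.35% higher and 2.92% lower), where the adjusted p was 0.031 for S100a8, 0.032 for S100a9, 0.036 for S100a6 and 0.047 for S100a10. A limma-voom fit with a sample weight per group called these 4 too, with 7.55% of genes higher and 3.77% lower. With all groups in the fit, edgeR called S100a8 and S100a9 without untreated replicate 1 (adjusted p = 0.049). It called the pair and S100a6 without untreated replicate 2 (adjusted p = 0.029 to 0.032). Without octanal replicate 1 it called these 3 with S100a10 (adjusted p = 0.044 to 0.046, with 3.06% of genes called higher and 0.618% lower). Leaving out 1 library gave 0 to 584 calls over all genes, the most without octanal replicate 1. The fits without untreated replicates 1 and 2 thus called at most 584 genes, and their shares are not given here.

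LPS with octanal against untreated shares its libraries with both other comparisons. In it 4 of 8 members fell, S100a1 3.68-fold, S100a6 2.65-fold, S100a11 2.60-fold and S100a4 2.18-fold, and none rose, where 8.67% of all genes were called, 2.63% as higher and 6.03% as lower. At an unadjusted p under 0.05 there were 6 members lower and 0 higher, where 27.4% of all genes passed and 16.4% were lower. The calprotectin pair was not called. S100a8 stood at 66.6% and S100a9 at 44.2% of the untreated mean CPM, compared with 17.9% and 7.54% in LPS libraries. The other falling members stood at 27.2% (S100a1), 37.7% (S100a6), 38.4% (S100a11) and 45.8% (S100a4). The median log2 fold change was -1.15 over the 8 members and -0.01 over all genes tested.

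For S100a8 the log2 fold change against untreated was -0.59 (95% interval -1.21 to 0.04, adjusted p = 0.21), and octanal replicate 3 lay above untreated replicate 2. For S100a9 it was -1.18 (95% interval -2.04 to -0.32, adjusted p = 0.088), and only octanal replicate 3, at 5117 CPM, reached the lowest untreated library, at 5098 CPM. S100a9 was called lower by DESeq2 (adjusted p = 0.012), which called 18.1% of the genes it tested, 6.7% higher and 11.4% lower. It was also called lower by edgeR without untreated replicate 2 (adjusted p = 0.046), a fit that called 2137 genes. The groups did not overlap for S100a1 (log2 fold change -1.88, SE 0.361, adjusted p = 0.018), S100a4 (-1.13, SE 0.246, adjusted p = 0.028), S100a6 (-1.41, SE 0.338, adjusted p = 0.037) or S100a11 (-1.38, SE 0.356, adjusted p = 0.047), as in 16.3% of all genes. S100a10 (log2 fold change -0.28, adjusted p = 0.36) and S100a13 (-0.57, adjusted p = 0.14) were not called. The pair's mean was -0.88 and the median of the other members -1.25, a difference of 0.37 that went to 0.05 without octanal replicate 3.

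DESeq2 called these 4 members too, 5 in all with S100a9. With edgeR the number called moved with the libraries in the fit, for these members and for all genes, where it went from 1339 to as few as 298. All 4 were lost without octanal replicate 2 and without octanal replicate 3, with adjusted p of 0.078 to 0.14 and 0.051 to 0.082. S100a4 was also lost without untreated replicate 1 (adjusted p = 0.073). S100a6 and S100a11 were also lost without untreated replicate 1 or 3, LPS replicate 1 or octanal replicate 1, and S100a11 also without LPS replicate 2 or 3, although the LPS libraries are in neither group compared. The log2 fold changes kept their direction without each library in turn, at -2.12 to -1.38 for S100a1, -1.40 to -0.96 for S100a4, -1.66 to -1.24 for S100a6 and -1.61 to -1.07 for S100a11.

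**Figure D3:**
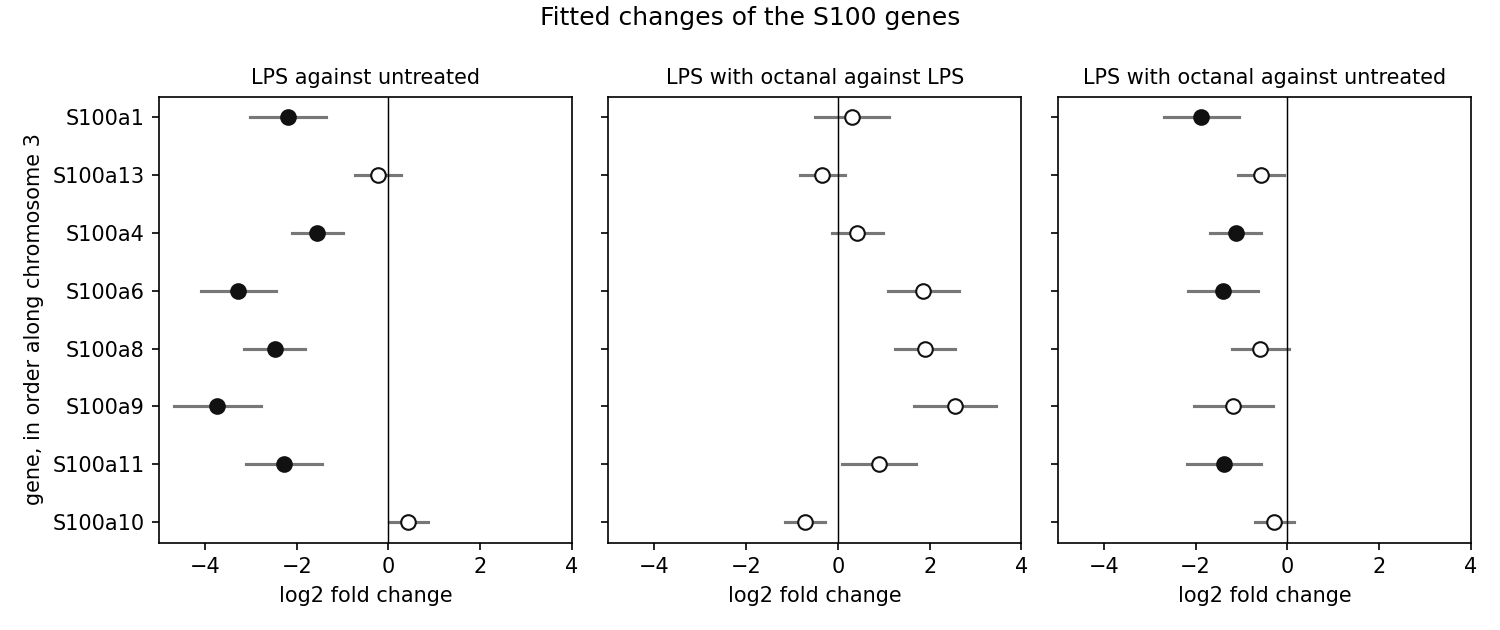
Log2 fold changes of the 8 S100 genes in the 3 comparisons, in gene order along chromosome 3, as points with 95% intervals from the edgeR fit, filled where the adjusted p is under 0.05. S100a6, S100a8 and S100a9, neighbours in this order, show the 3 largest values for octanal against LPS, at 1.86, 1.90 and 2.55, and S100a10 and S100a13 are not filled in any panel.

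Similarity of pattern was measured as the root mean square difference between centred log2 CPM over the 9 libraries, which share their depth and group structure. It is a description with no test. Nearest to S100a8 among 8681 genes with at least 10 CPM were Rasgrp4 (0.18), Ifnlr1 (0.19), Adgrg3 (0.22), Celsr3 (0.22) and Cd300lf (0.22). Nearest to S100a9 were Gapt (0.25), Stfa2l1 (0.26) and Camp (0.29), a neutrophil granule peptide. S100a6 was closer to S100a9 (0.33, rank 8) than S100a8 was (0.53, rank 38). It was also closer to S100a8 (0.45, rank 100) than S100a9 was (0.53, rank 211), so many genes outside the family were closer to S100a8. Nearest to S100a4 were Emilin1 (0.20), Slc27a1 (0.21) and Napsa (0.21). Nearest to S100a10 were Parn (0.09), Arhgap12 (0.10) and Ccdc134 (0.10). S100a13 was the closest of the S100 members to it, but only at rank 1333 (0.32).

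Of 10 other mouse S100 genes, S100a2 and S100a7l2 had 0 counts in every library, and S100a3, S100a5, S100a14, S100b, S100g and S100z had at most 12 counts in any. S100a7a, a relative of the human psoriasin gene, had 21, 14 and 23 counts in untreated, 2, 0 and 4 in LPS and 4, 0 and 8 in octanal libraries. It passed the filter on low counts through its untreated libraries alone, so these counts are given as a description, with no test. S100a16 had 0 to 20, 6 to 23 and 0 to 11 counts and was not called in any comparison.

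Receptors through which S100 proteins signal were measured in a list of 9 genes. In LPS against untreated, 3 fell and 1 rose, where 17.6% of all genes tested fell and 15.2% rose. The fatty acid scavenger receptor Cd36 went from 969.8 ± 239 to 227 ± 96.5 CPM (log2 fold change -2.10, adjusted p = 0.0026), Tlr4 from 82.0 ± 22.9 to 28.1 ± 4.05 CPM (-1.54, adjusted p = 0.0040) and Alcam from 414 ± 98.4 to 205 ± 46.7 CPM (-1.01, adjusted p = 0.013). Ager, which encodes RAGE, rose from 7.42 ± 3.21 to 21.8 ± 5.41 CPM (1.56, adjusted p = 0.019). With octanal against LPS, 7 of 9 were higher and edgeR called 0, with 6 higher at an unadjusted p under 0.05 (13.6% of all genes) and 6 called higher by DESeq2 (11.2%). The lowest p belonged to Tlr4 at 67.9 ± 19.9 CPM (1.27, adjusted p = 0.058), the adaptor Myd88 (0.54, adjusted p = 0.073) and the LPS co-receptor Cd14 (0.81, adjusted p = 0.091). Against untreated, Cd14 rose from 533 ± 159 to 1247 ± 188 CPM (1.23, adjusted p = 0.015) and Cd36 fell (-1.79, adjusted p = 0.014), where 2.63% of all genes rose and 6.03% fell, and the other 7 were not called (Myd88 0.34, adjusted p = 0.12). Median log2 fold changes of the list were -0.20, 0.53 and 0.03 in these 3 comparisons.

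Of 12 intracellular and secretory partners 11 were tested. In LPS against untreated, 4 fell and 1 rose, beside 17.6% and 15.2% of all genes tested. Anxa1, the partner of S100a11, fell from 969 ± 368 to 56.4 ± 7.45 CPM (log2 fold change -4.10, adjusted p = 9.1e-04). The scaffold gene Ahnak fell from 900 ± 191 to 186 ± 33.1 CPM (-2.28, adjusted p = 6.6e-04) and Anxa11 also fell (-1.09, adjusted p = 0.0045). Anxa2, the partner of S100a10, fell from 311 ± 62.5 to 147 ± 11.7 CPM (-1.08, adjusted p = 0.013), while S100a10 itself was not called. With octanal against LPS, Anxa1 stood at 222 ± 112 CPM (1.98, adjusted p = 0.058), Ahnak at 301 ± 63.2 CPM (0.69, adjusted p = 0.12) and Anxa11 at a log2 fold change of 0.45 (adjusted p = 0.21). Here edgeR called 0, with 3 higher at an unadjusted p under 0.05 (13.6% of all genes) and 2 called higher by DESeq2 (11.2%). Against untreated, Ahnak (-1.58, adjusted p = 0.0056) and Anxa1 (-2.13, adjusted p = 0.018) fell, beside 6.03% of all genes. The p53 gene Trp53 rose (0.47, adjusted p = 0.026), beside 2.63% of all genes, as it also had in LPS against untreated (0.58, adjusted p = 0.0045). Median log2 fold changes were -0.20, -0.01 and -0.28.

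Calprotectin also serves the phagocyte oxidase, the enzyme that makes superoxide, by carrying arachidonic acid to it. Of its 6 genes 5 fell in LPS against untreated, beside 17.6% of all genes tested, such as Ncf1 (log2 fold change -1.41, adjusted p = 0.0040) and Ncf4 (-1.003, adjusted p = 0.012). With octanal against LPS all 6 were higher without overlap (18.3% of all genes) and edgeR called 0, with 5 higher at an unadjusted p under 0.05 (13.6%) and 5 called higher by DESeq2 (11.2%). The lowest p belonged to Ncf4 at 1.18 (adjusted p = 0.057) and Ncf1 at 1.19 (adjusted p = 0.058). Against untreated edgeR called 0 of 6, with 1 lower at an unadjusted p under 0.05 (16.4% of all genes) and 1 called lower by DESeq2 (11.4%). Ncf1 stood at -0.23 (adjusted p = 0.57). Median log2 fold changes were -1.06, 0.90 and -0.14.

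Of 9 myeloid transcription factor genes 6 fell in LPS against untreated, beside 17.6% of all genes tested. Cebpe, needed for late granulocyte maturation, went from 34.8 ± 14.95 to 0.9503 ± 0.381 CPM (log2 fold change -5.19, adjusted p = 0.0010), and Cebpa (-1.42, adjusted p = 0.0025) and Runx1 (-0.89, adjusted p = 0.0029) fell too. With octanal against LPS edgeR called 0, with 5 higher at an unadjusted p under 0.05 (13.6% of all genes) and 4 called higher by DESeq2 (11.2%). The lowest p belonged to Cebpb (276 ± 21.0 and 513 ± 110 CPM, 0.90, adjusted p = 0.054), Spi1, which encodes PU.1 (0.93, adjusted p = 0.057), and Cebpd (1.30, adjusted p = 0.057). Against untreated Cebpb rose (0.92, adjusted p = 0.013), and Runx1 (-0.69, adjusted p = 0.021), Cebpe (-2.38, adjusted p = 0.029) and Cebpa (-0.85, adjusted p = 0.041) fell. Of all genes, 2.63% rose and 6.03% fell there. Median log2 fold changes of the list were -0.87, 0.57 and -0.66.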

How the data were processed

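RNA sequencing covered 9 libraries of mouse monocytes, 3 in each of the untreated, LPS and LPS with octanal groups, which were assigned by title. Per the file headers, the authors deposited whole-number counts per gene, with no normalization, beside FPKM values scaled by gene length and depth. The submitters' processing notes name the build GRCm38, and gene positions came from GENCODE M21 of that build. The aligner, counter and strand setting are not given in sources used here, so overlapping genes may share reads. There were 10 lines of text in place of values, which were dropped.

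The count test was edgeR 4.0.16 in R 4.3.3, with TMM scaling, filterByExpr over the groups and a quasi-likelihood fit of the 9 libraries together. Adjusted p-values are Benjamini-Hochberg values over all 15447 genes tested and come from that test unless another tool is named. TMM factors ran from 0.923 to 1.07. Replicates differed beyond counting noise in all groups, with chi-square values per degree of freedom from 46.5 to 154. The alternatives included DESeq2 1.42.0 and limma 3.58.1. In simulated data with 100 genes changed 2-fold and 100 changed 4-fold among 15447, the fit recovered 34 and 63 in LPS against untreated, 33 and 72 in LPS with octanal against LPS, and 33 and 76 in LPS with octanal against untreated, with 10, 5 and 8 false calls. Only these genes were changed in the simulation, while 32.8% of genes were called in LPS against untreated. Its recovery therefore need not hold for the data. The S100 genes, the gene lists and the tests were chosen with earlier results of these data known. From each list the up to 3 genes of lowest p per comparison are named, except that 1 gene is not reported here. Anxa2, Ager, Cebpa in LPS with octanal against untreated and Trp53 in LPS against untreated were added after their values were seen. So were the monocyte genes Csf1r, Ly6c2 and Lyz2.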

Additional observations from a re-analysis of the deposited data

How the results depend on the processing

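Under the 20 alternatives tried in each comparison, no S100 member changed its direction in any comparison. In LPS against untreated the 6 calls remained 6 throughout, except that a filter at a mean of 10 CPM removed S100a1 and left 5. In LPS with octanal against LPS the count of members called went from 0 to 4 with the DESeq2 Wald test, with a limma-voom fit that weights samples per group and with only the 6 libraries of both groups. It went to 3 without a filter on low counts, with the filter at 10 CPM, with log2 FPKM and a pseudocount of 0.1 and without unannotated loci. Leaving out 1 library gave 0 to 4. It was 0 with DESeq2 size factors, limma-voom and log2 FPKM with a pseudocount of 1. In LPS with octanal against untreated the count of 4 went to 5 with the DESeq2 Wald test, to 3 with the filter at 10 CPM, to 2 with weights per group and to 0 with only the 6 libraries of both groups, and leaving out 1 library gave 0 to 5. Calls over all genes moved too. In LPS with octanal against LPS they ran from 0 to 1800 over the alternatives. In LPS with octanal against untreated they ran from 298 to 2798. For LPS with octanal against LPS, DESeq2 called 14.5%, weights per group 11.3% and the 6 libraries 9.27% of genes tested. For settings whose share of all genes is not given, the member count is no result about the S100 genes. The cause was not tested. The calprotectin pair minus the median of the other members lay between -1.60 and -0.96, between 1.40 and 2.19 and between 0.05 and 0.61 over all alternatives of the 3 comparisons in turn. Per library, the pair's mean log2 CPM minus the median log2 CPM of the other members had a pooled SD within groups of 0.55. That is a spread of levels between replicates, not the error of these differences between groups.

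The labels do not say whether equal replicate numbers pair the samples. Correlations of same-numbered deviations from the group means ran from -0.09 to 0.18, with 1 of 9 over 0.1, and 1 of 9 was the highest for its library. With 3 libraries a group and large differences between replicates, these values cannot show whether samples were paired. With the replicate block 6, 0 and 2 members were called in the 3 comparisons. S100a6 (adjusted p = 0.078) and S100a11 (adjusted p = 0.085) were lost in LPS with octanal against untreated. Over all genes this fit called 4257 in LPS against untreated and 0 in LPS with octanal against LPS.

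Over all genes, calls in LPS against untreated numbered 5072 and went to 2387, 3284 and 2926 without LPS replicates 1, 2 and 3. In LPS with octanal against LPS they were 0, and 0 to 1800 over the alternatives. In LPS with octanal against untreated they were 1339, and 298 to 2798. With log2 FPKM and a pseudocount of 0.1, 60.5% of calls in LPS against untreated were rises, against 46.4% from counts, and the median gene shifted by 0.11 on the log2 scale. With 3 libraries a group, depth limits the rare S100 genes, while the 8 members had at least 109 counts in every library.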
